A study of Mus musculus with 2 samples.

Results

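The nuclear receptor superfamily is a family of transcription factors, many of which are switched by small lipophilic ligands such as retinoic acid, thyroid hormone, steroids and oxysterols. The members examined are the 45 mouse genes of this family named in a fixed list, from the retinoid receptors to Nr0b1 and Nr0b2, read through every probe set that names 1 gene only. Of the 45 genes, 43 had such a probe set, with 114 probe sets in all, out of 18194 genes and 45101 probe sets on the arrays. Nr1h2 and Nr2e3 were not analysed here.

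Cells were taken from otocysts, the epithelial vesicles that give rise to the inner ear, of mouse embryos at E10.5 that were heterozygous for the transgene Tg(ETAR-EGFP)14Imeg. After dissociation in 0.25% trypsin they were sorted by fluorescence into an EGFP-positive and an EGFP-negative population, both of the same age and genotype. The labels place EGFP mainly in the ventral and dorsomedial parts of the vesicle and describe the dorsolateral part as lacking it. The comparison asks which receptors differ between the sorted populations. These also differed in markers of other cell types, given below, so territory and cell type cannot be told apart. Each population was hybridised once, to 1 Affymetrix array, so there is no replicate, no p-value is given, and every difference describes these 2 arrays. The strain, the number of embryos pooled and the elements that drive the transgene are not given in the sources used here.

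Nuclear receptors share a zinc finger domain that binds DNA and a ligand-binding domain that recruits coactivators or corepressors. Many of them bind as pairs with a retinoid X receptor to repeats of a short hexamer related to AGGTCA. Retinoic acid acts through retinoic acid receptors paired with retinoid X receptors and is known for its part in patterning the otocyst along its axes.

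The values are MAS5 signals on a linear scale, and signals of different probe sets are not compared with each other. Each array's 40th percentile, 10.4 in EGFP-positive cells against 12.4 in EGFP-negative cells, served as a floor to which lower signals were raised. The brightest probe set stood for its gene, and a difference of at least 2-fold, a log2 ratio beyond 1 in size, was counted. Log2 ratios are EGFP-positive over EGFP-negative throughout. Among 27 bacterial control probe sets without evident signal the highest reached 12.3 in EGFP-positive cells against 9.0 in EGFP-negative cells, so where an EGFP-positive signal was at or below 12.3 the signals are given in place of a fold. As a partial measure of technical error, probe sets of 1 gene differed in log2 ratio with an SD of 0.315 over 5640 genes, or 0.411 for mean signals under 50, 0.328 from 50 to 200 and 0.249 beyond that. This SD holds no variation between embryos, sorts or hybridisations.

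The 2 sorted populations differed in more than otocyst territory. All 10 markers of the ventral otocyst and 10 of 13 markers of otic epithelium were higher by 2-fold or more in EGFP-positive cells, with summed signals of 4777 against 1556 and of 10484 against 5140 in EGFP-negative cells. Oc90, named here after its values were seen, was the 1 otic marker that lay the other way. It had 939.8 in EGFP-positive cells against 1405.7 in EGFP-negative cells. Of 8 dorsolateral markers, 6 were higher by 2-fold or more in EGFP-negative cells. Most markers of other cell types were past 2-fold in that direction too, namely 11 of 12 for mesenchyme (summed signal 445.5 in EGFP-positive cells against 6255 in EGFP-negative cells), 9 of 10 for endothelium (119.1 and 607.9), 9 of 9 measured for erythroid cells (3016 and 21339), 10 of 10 for leukocytes (134.9 and 1589), 7 of 8 for hindbrain (96.1 and 2625) and 5 of 6 measured for neural crest and glia (1507 and 1503). The last sum rests mostly on Erbb3, the 1 gene of that list higher in EGFP-positive cells, at 1405.0 against 511.1 in EGFP-negative cells, named here after its values were seen. Markers at or below the floor in EGFP-positive cells included Col1a1, Twist2, Foxc2, Pecam1, Cdh5, Ptprc, C1qb, Alas2, Klf1, Sox1, Pax3 and Tfap2b, and no measured marker of these 6 lists was at the floor in EGFP-negative cells. In bulk samples fewer cells of a type and less RNA per cell cannot be told apart. The marker lists were chosen with earlier results of these data known, so the counts describe these arrays and are no independent check.

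Of the 43 receptor genes with a probe set, 28 had a signal above the floor in at least 1 population. Rxrg, Pgr, Rorb and Nr6a1 were higher by 2-fold or more in EGFP-positive cells, and Nr3c1 and Esrrb were higher by 2-fold or more in EGFP-negative cells. The other 22 were counted within 2-fold, with log2 ratios between -0.94 and 0.58, and 14 of them lay within 0.5 of 0. Among the 22, Nr1h3, Nr0b1, Nr0b2, Nr5a1 and Nr5a2 were at the floor in 1 population. Their ratios are bounds and do not show a difference under 2-fold. Thus 14.3% of the 28 were higher in EGFP-positive cells, where 2.90% of all 13363 genes measured were, and 7.14% were higher in EGFP-negative cells, where 7.63% of all genes were. These shares lean on the floor, since Rorb, Nr3c1 and Esrrb were above it only in the population where they were counted as higher. The probe sets of Esrrb also disagreed. Leaving out genes at the floor in 1 population, 3 of 20 receptors were higher in EGFP-positive cells and 0 in EGFP-negative cells. Over all 11682 genes kept in this way, the counts were 325 and 632. The median log2 ratio was -0.12 over the 28 receptors and 0.0032 over all genes, and that of the receptors had no settled sign, being 0.0155 after quantile normalization and 0.0855 both with the floor at the 60th percentile and without ambiguous probe sets. Both splits move with scaling, since over all genes 388 were higher in EGFP-positive cells against 1019 in EGFP-negative cells (27.6% of calls in EGFP-positive), against 503 and 822 (38.0%) after quantile normalization and 225 and 1442 (13.5%) after centring on 12 hybridisation controls, whose median log2 ratio was 0.25. For the receptors the counts were 4 and 2 as deposited and after quantile normalization, but 3 and 6 after centring on these controls.

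**Figure D1:**
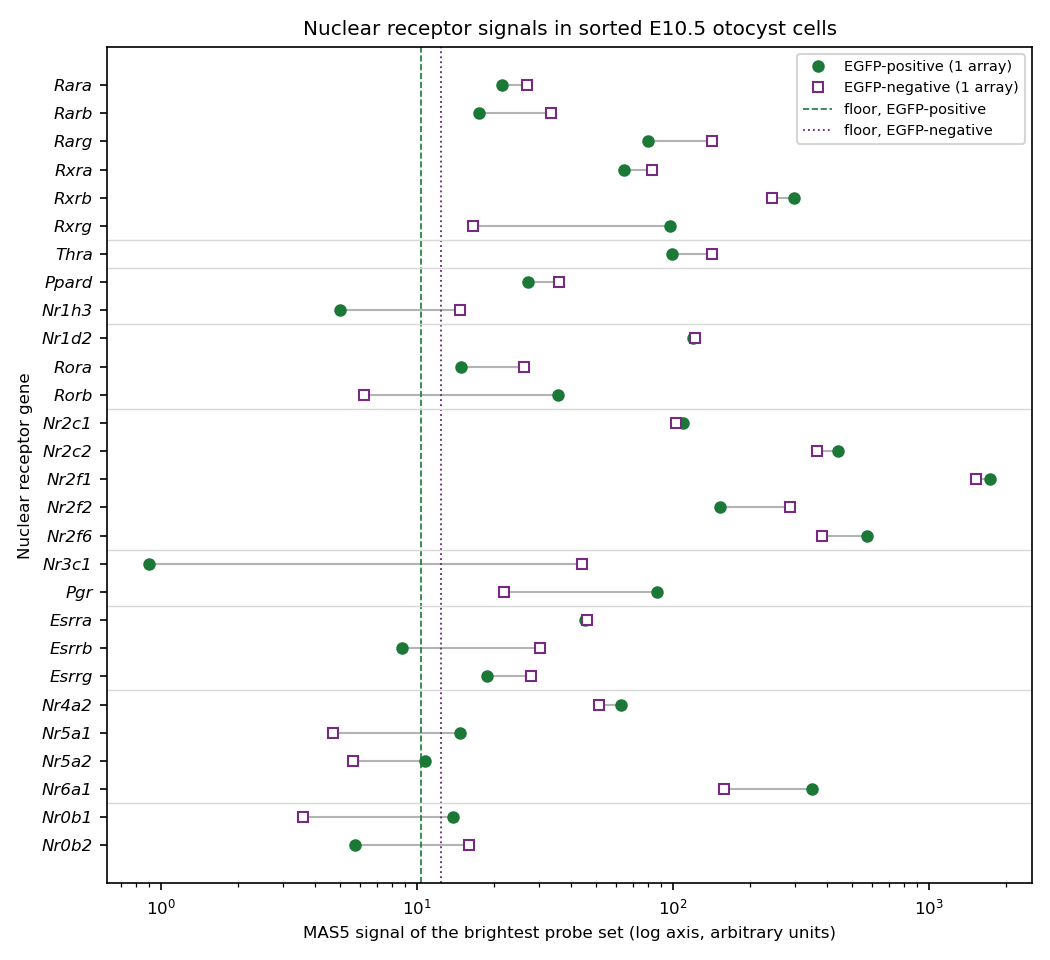
MAS5 signal (log axis, arbitrary units) of the brightest probe set of each of the 28 receptor genes above the floor, with 1 filled circle for the EGFP-positive and 1 open square for the EGFP-negative array, grouped by receptor class between the horizontal lines. Vertical lines mark the floors of 10.4 (EGFP-positive) and 12.4 (EGFP-negative). The widest gaps between populations with both signals above the floors are those of Rxrg and Pgr.

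**Figure D2:**
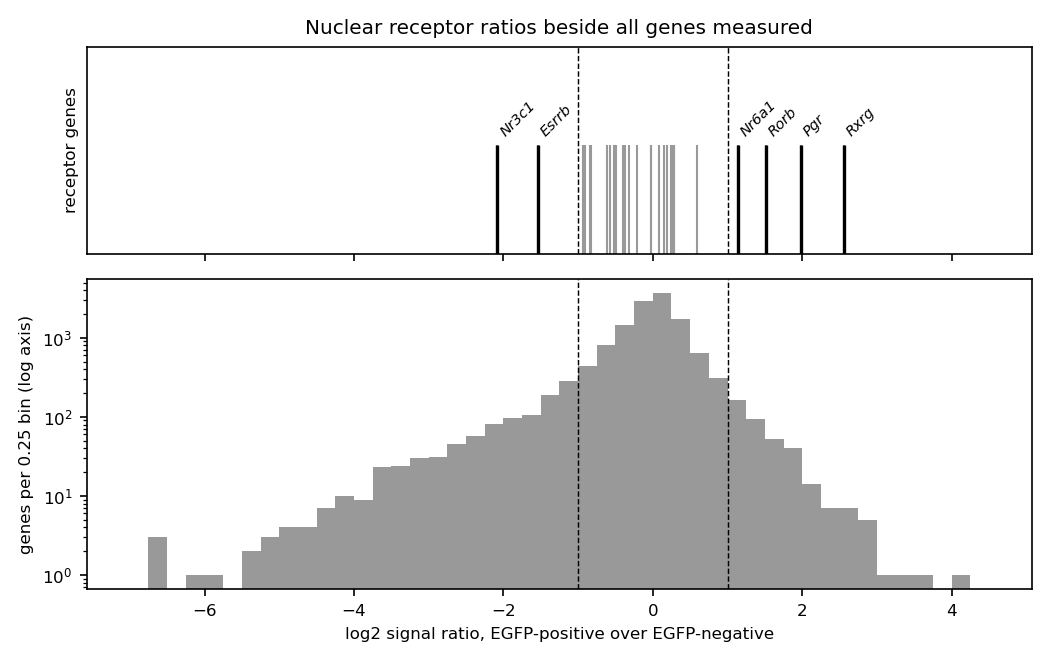
The upper panel marks the log2 signal ratio, EGFP-positive over EGFP-negative, of the 28 receptor genes, and the lower panel gives the number of genes per bin (log axis) for all 13363 genes measured. Dashed lines mark 2-fold. The 6 labelled receptors lie outside these lines, 4 towards EGFP-positive and 2 towards EGFP-negative cells.

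The retinoid receptors were all above the floor in both populations, and Rxrg stood apart from its relatives. Rxrg encodes retinoid X receptor gamma, the most tissue-restricted of the retinoid X receptors. Its only probe set had a signal of 97.4 in EGFP-positive cells against 16.5 in EGFP-negative cells, which is 5.90-fold higher in EGFP-positive cells (log2 ratio 2.56). The lower signal was close to the floor, so that the size is less certain than the direction, and a floor at the 60th percentile gave a log2 ratio of 1.38 and a pseudocount of 16 in place of a floor gave 1.80. Rxrb, a widely expressed partner receptor, had 296.6 in EGFP-positive cells against 244.5 in EGFP-negative cells (log2 ratio 0.28). Rxra, the retinoid X receptor needed for heart and eye development, had 64.2 and 82.9 with its brightest probe set (log2 ratio -0.37) and 74.3 and 71.1 with another (log2 ratio 0.06). The log2 ratio of Rxrg exceeded that of either relative by far more than the SD between probe sets of 1 gene.

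The 3 retinoic acid receptor genes, whose products bind retinoic acid itself, all had lower signals in EGFP-positive cells, none of them 2-fold lower by the brightest probe set. Rara had 21.5 in EGFP-positive cells against 26.8 in EGFP-negative cells (log2 ratio -0.32), a difference within the SD between probe sets at such signals. Rarb, itself a known target of retinoic acid, had 17.4 in EGFP-positive cells against 33.4 in EGFP-negative cells, 1.92-fold higher in EGFP-negative cells (log2 ratio -0.94). Rarb has 1 probe set, and both signals lay below the 60th percentiles of 33.3 and 37.5. Its log2 ratio was -0.73 after quantile normalization and -1.19, past 2-fold, after centring on hybridisation controls. Rarg, which is known from skeletal and skin precursors, had 79.6 in EGFP-positive cells against 142.3 in EGFP-negative cells (log2 ratio -0.84). Its second probe set had 12.8 and 65.2 (log2 ratio -2.35), so that the mean over both was -1.59 and past 2-fold. Mesenchymal markers, with a median log2 ratio of -3.84 over 12 genes, were higher in the same population as these receptor genes. So were most markers of the other cell types listed above, and the part of these markers in the difference was not tested.

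Promoter sequences, from 250 bases before to 50 bases after each start, were taken from RefSeq (GRCm38.p6) and matched 41 of the 45 genes with 62 starts. They were searched on both strands for the hexamer in 4 spellings, AGGTCA itself and, as variants, GGGTCA or AGTTCA or GGTTCA, of which no more than 1 fits a given position and strand. At least 1 of these was present in 43.5% of the 62 receptor promoters and in 43.7% of all 32851 promoters, and AGGTCA itself in 19.4% and 16.3%. A direct repeat of 2 hexamers on 1 strand, 1 to 5 bases apart, was present in 1 receptor promoter, that of Rarb, and in 230 of all promoters (0.7%). With a spacing of exactly 5 bases it was found in 32 of all promoters (0.0974%). The arrays do not show which start is used. The promoter of Rarb is shown because of this repeat, which is the textbook retinoic acid response element of this gene, and those of Rxrg because its signal differed most in favour of EGFP-positive cells among the receptors. Capitals mark the hexamers, which read in reverse complement (TGACCC, for example) where they lie on the other strand. The Rarb promoter is at chr14:16575427-16575726 (minus strand), and those of Rxrg are at chr1:167598112-167598411 and chr1:167618015-167618314 (plus strand).
Rarb: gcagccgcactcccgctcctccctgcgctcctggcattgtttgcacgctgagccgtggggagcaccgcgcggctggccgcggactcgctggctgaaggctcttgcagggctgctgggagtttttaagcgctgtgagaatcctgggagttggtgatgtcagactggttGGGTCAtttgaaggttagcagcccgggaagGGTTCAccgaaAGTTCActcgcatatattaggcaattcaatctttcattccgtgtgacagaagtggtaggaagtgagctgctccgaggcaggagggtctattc
Rxrg, upstream start: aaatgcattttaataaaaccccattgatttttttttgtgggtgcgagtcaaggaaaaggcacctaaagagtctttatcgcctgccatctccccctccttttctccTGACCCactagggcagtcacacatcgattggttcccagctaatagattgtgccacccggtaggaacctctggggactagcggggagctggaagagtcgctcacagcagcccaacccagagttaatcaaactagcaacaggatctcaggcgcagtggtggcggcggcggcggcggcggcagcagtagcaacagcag
Rxrg, downstream start: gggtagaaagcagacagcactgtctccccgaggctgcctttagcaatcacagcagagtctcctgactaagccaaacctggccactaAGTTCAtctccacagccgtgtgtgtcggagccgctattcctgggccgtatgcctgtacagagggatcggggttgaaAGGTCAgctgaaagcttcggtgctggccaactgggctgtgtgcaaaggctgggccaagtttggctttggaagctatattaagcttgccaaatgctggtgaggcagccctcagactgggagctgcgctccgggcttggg
In the Rarb promoter the hexamers of the repeat begin 53 and 42 bases before the start, with another hexamer 83 bases before it. The upstream Rxrg promoter holds 1 hexamer on the opposite strand, and the downstream one holds AGTTCA 164 and AGGTCA 88 bases before the start. A match is a description of these letters and says nothing of binding.

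The COUP-TF genes, orphan receptors of patterning in which no natural ligand is settled, diverged from each other. Nr2f1, which encodes COUP-TFI and is required for normal development of the mouse cochlea, had signals of 1732.3 in EGFP-positive cells against 1524.3 in EGFP-negative cells (log2 ratio 0.18, and -0.06 after centring on hybridisation controls). Nr2f2, which encodes COUP-TFII, a regulator known from mesenchyme and veins, had 152.5 in EGFP-positive cells against 287.4 in EGFP-negative cells, 1.88-fold higher in EGFP-negative cells (log2 ratio -0.91). All 5 of its probe sets above the floor were lower in EGFP-positive cells, with log2 ratios between -1.30 and -0.75 (SD 0.21), and 3 of the 5 were past 2-fold. The probe set averages put it past 2-fold, at -1.03, while the brightest probe set left it just within. Markers of mesenchyme and of endothelium, with median log2 ratios of -3.84 and -1.73, were higher in the same population. Most markers of the other cell types were too, and the part of these markers in the difference was not tested. Nr2f6, another member of the COUP-TF group, went the other way in both probe sets, with 573.1 and 337.3 in EGFP-positive against 382.1 and 185.5 in EGFP-negative cells (log2 ratios 0.58 and 0.86).

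Among the other orphan receptors of this class, the testicular receptors were near equal in the 2 populations. Nr2c1 (TR2) had 109.5 in EGFP-positive cells against 103.2 in EGFP-negative cells, with 5 probe sets between -0.58 and 0.13. Nr2c2 (TR4) had 440.9 in EGFP-positive cells against 365.9 in EGFP-negative cells (log2 ratio 0.27), and its 4 probe sets above both floors were all above 0. After centring on hybridisation controls the log2 ratio of Nr2c1 was -0.16. Nr2e1, the Tlx gene of neural stem cells, was at the floor in both populations.

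Nr6a1 was higher in EGFP-positive cells by most of its probe sets. It encodes GCNF, an orphan receptor that represses pluripotency genes in the early embryo and is needed for axial development. The brightest probe set had 348.7 in EGFP-positive cells against 158.4 in EGFP-negative cells, 2.20-fold higher in EGFP-positive cells (log2 ratio 1.14). The next probe sets had 158.8 against 77.1, 80.0 against 34.6 and 55.1 against 35.5 in EGFP-negative cells, with log2 ratios of 1.04, 1.21 and 0.63. Thus all 4 probe sets above both floors were higher in EGFP-positive cells and 3 of them past 2-fold, with an SD of 0.26 between them. Centring on hybridisation controls brought the log2 ratio of the brightest to 0.89, within 2-fold. Markers of otic epithelium, with a median log2 ratio of 1.36 over 13 genes, were mostly higher in the same population. Their part in the difference of Nr6a1, and in those of Rxrg, Pgr and Rorb, was not tested. Of the 2 promoters of Nr6a1 in RefSeq, 1 holds the hexamer 3 times, always on the opposite strand, and is shown because the gene differed in favour of EGFP-positive cells by several probe sets. It lies at chr2:38784466-38784765 (minus strand), with capitals at 91, 78 and 45 bases before the start.
Nr6a1: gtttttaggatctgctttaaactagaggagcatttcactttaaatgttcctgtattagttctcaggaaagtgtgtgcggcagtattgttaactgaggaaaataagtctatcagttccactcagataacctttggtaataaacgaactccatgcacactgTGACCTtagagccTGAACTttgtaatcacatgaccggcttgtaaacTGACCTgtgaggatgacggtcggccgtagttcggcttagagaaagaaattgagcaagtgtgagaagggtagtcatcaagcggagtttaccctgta
The spacing of these hexamers was outside 1 to 5 bases, and the other Nr6a1 promoter held none. No hexamer was found in the promoters of Pgr, Rorb or Nr2f2 within these windows.

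Steroid receptors were mostly at the floor, and the 2 that were not went opposite ways. Pgr, the progesterone receptor gene, had 86.3 in EGFP-positive cells against 21.8 in EGFP-negative cells at its brightest probe set, which is 3.96-fold higher in EGFP-positive cells (log2 ratio 1.99, but 1.20 with the floor at the 60th percentile). Its other probe sets were at the floor in both populations, with 9.5 and 0.9 in EGFP-positive against 5.3 and 3.7 in EGFP-negative cells, so that the difference rests on 1 probe set. Nr3c1, the glucocorticoid receptor gene, had 0.9 in EGFP-positive cells against 44.0 in EGFP-negative cells at its brightest probe set. In 3 further probe sets it had 7.6, 4.6 and 5.0 in EGFP-positive against 22.3, 18.5 and 16.1 in EGFP-negative cells. All 4 were thus at the floor in EGFP-positive cells and above it in EGFP-negative cells, and the other 2 were at the floor in both. With the floor at the 60th percentile, Nr3c1 was within 2-fold. Leukocyte markers, with a median log2 ratio of -2.78 over 10 genes, and mesenchymal markers were higher in the same population. Most markers of the other cell types were too, and the part of these markers was not tested. The estrogen receptor genes Esr1 and Esr2 and the mineralocorticoid receptor gene Nr3c2 were at the floor in both populations.

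The estrogen-related receptors are orphan regulators of energy metabolism and, in the inner ear, of ion transport and hearing. Esrra had 45.5 in EGFP-positive cells against 46.1 in EGFP-negative cells (log2 ratio -0.02). Esrrg, whose human counterpart has been linked to hearing, had 18.8 in EGFP-positive cells against 27.9 in EGFP-negative cells (log2 ratio -0.57). Esrrb, which is known from stem cells and from endolymph-secreting cells of the inner ear, had 8.7 in EGFP-positive cells against 30.3 in EGFP-negative cells at its brightest probe set. The count of Esrrb as higher in EGFP-negative cells rests on that probe set, whose name ending in _x_at marks possible cross-hybridisation. Its other probe sets had 18.7 and 11.9 in EGFP-positive against 9.2 and 11.1 in EGFP-negative cells, which lie the other way or near equal, so no direction can be given for this gene.

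**Figure D3:**
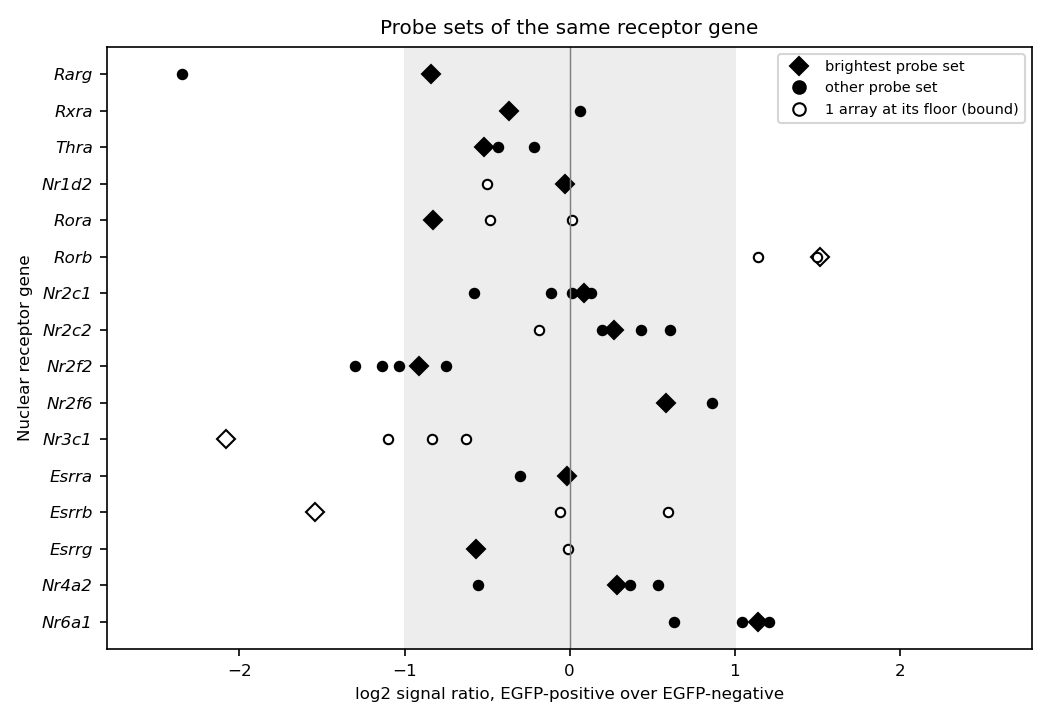
Log2 signal ratio, EGFP-positive over EGFP-negative, of every probe set above a floor for the 16 receptor genes with at least 2 such probe sets. Diamonds are the brightest probe set, circles the others, open symbols have 1 array at its floor, and the grey band is the range within 2-fold. For 10 of the 16 genes, among them Nr6a1, Rorb, Nr2f2 and Nr3c1, all plotted probe sets lie on the same side of 0, whereas those of Esrrb lie on both sides. All plotted probe sets of Rorb and Nr3c1 are open, so their side follows from which array was above its floor. Probe sets of Nr3c1 at the floor in both arrays are not plotted. They had 6.8 and 5.4 in EGFP-positive against 2.6 and 1.6 in EGFP-negative cells. For open symbols near 0 the side can come from the unequal floors. A probe set of Esrrg with 12.3 in EGFP-positive against 6.4 in EGFP-negative cells is plotted at -0.01. Likewise, a probe set of Nr2c2 with 10.9 and 1.5 is plotted at -0.19. The count of 10 depends on such placements.

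Among the Rev-erb and ROR receptors, which act in opposition on the same DNA elements and link the circadian clock to metabolism, only Rorb passed 2-fold. Rorb, a gene known from neurons of the retina and the cortex, had 35.5, 27.3 and 35.0 in EGFP-positive cells in its 3 probe sets, against 6.2, 10.0 and 0.7 in EGFP-negative cells. All 3 were above the floor in EGFP-positive and at the floor in EGFP-negative cells, so the ratios are lower bounds. The brightest probe set was higher by at least 2.86-fold (log2 ratio of at least 1.52), and the lowest bound of the 3 was 1.14 on the log2 scale. Its signals were low, and with the floor at the 60th percentile, 33.3 and 37.5 in the 2 arrays, the difference was lost. Rora had 14.8 in EGFP-positive cells against 26.3 in EGFP-negative cells (log2 ratio -0.83), but 6 of its 9 probe sets were at the floor in both populations. Nr1d2 (Rev-erb beta) had 119.4 in EGFP-positive cells against 121.7 in EGFP-negative cells (log2 ratio -0.03), while Nr1d1 (Rev-erb alpha) was at the floor in both.

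The thyroid hormone receptor gene Thra had lower signals in EGFP-positive cells in each of 3 probe sets, 98.8, 20.7 and 19.2 against 141.5, 28.0 and 22.3 in EGFP-negative cells. Their log2 ratios of -0.52, -0.44 and -0.22 had an SD of 0.16. Thrb, which is required for hearing in mice and acts later in the cochlea, was at the floor with 2.5 and 12.0, as was the vitamin D receptor gene Vdr with 10.3 and 5.1 at its brightest probe set. Of the receptors for fatty acids and oxysterols, Ppard had 27.2 in EGFP-positive cells against 35.8 in EGFP-negative cells (log2 ratio -0.40), and Ppara and Pparg were at the floor in both. The liver X receptor gene Nr1h3 had 5.0 in EGFP-positive cells against 14.7 in EGFP-negative cells.

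The remaining classes were weak or near equal. Nr4a2 (Nurr1), an immediate early gene of neurons, had 62.8 in EGFP-positive cells against 51.5 in EGFP-negative cells (log2 ratio 0.29), and its 4 probe sets above both floors ranged from -0.55 to 0.53, while Nr4a3 was at the floor. Nr5a1 (SF-1), the regulator of steroid-producing organs, had 14.7 and 4.7, and Nr5a2 (LRH-1) had 10.7 and 5.6 in EGFP-positive and EGFP-negative cells. Nr0b1 (DAX1) and Nr0b2 (SHP), which lack the usual DNA-binding domain and repress other receptors, had 13.8 and 5.7 in EGFP-positive against 3.6 and 15.9 in EGFP-negative cells. These 4 were above the floor in 1 population only and by little, which does not show a difference.

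In all, 15 receptor genes with 29 probe sets had no signal above the floor in either population, their highest signals being 10.3 in EGFP-positive cells against 12.0 in EGFP-negative cells. They include all 5 receptors of bile acids, xenobiotics and the HNF4 group (Nr1h4, Nr1i2, Nr1i3, Hnf4a and Hnf4g), which are known from liver and gut. Such genes were not detectable at this signal, which is not evidence that they are absent. For Hnf4a this held for 4 probe sets, and for Ppara, Hnf4g, Esr1 and Nr4a3 for 3 each.

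Cofactors that receptors recruit were mostly near equal in the 2 populations by their brightest probe sets. By these, none of 13 coactivator and 7 corepressor genes measured differed by 2-fold, and 18 of these 20 lay within 0.5 of 0 on the log2 scale, with medians of -0.09 and -0.02. Other probe sets passed 2-fold for Ncoa4, at -1.12, and for Med1, whose 7 ranged from -1.35 to 0.35. Ppargc1b had 3.0 in EGFP-positive cells against 15.0 in EGFP-negative cells, so its ratio is a bound. Med1 and Ppargc1b were named after their values were seen. The coactivator gene Prmt1, an arginine methyltransferase, had 2638.5 in EGFP-positive cells against 2286.1 in EGFP-negative cells, Carm1, another methyltransferase, had 564.2 and 549.1, and Ncoa4, also a ferritin receptor in iron release, had 389.8 and 711.0. The corepressor genes Tbl1x, Hdac3 and Nrip1 had 978.6, 469.3 and 344.6 in EGFP-positive against 829.9, 412.1 and 432.5 in EGFP-negative cells.

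Of 11 measured genes of retinoic acid metabolism, 2 were higher by 2-fold or more in EGFP-positive cells and 3 in EGFP-negative cells, with a median log2 ratio of -0.37. The synthesis genes went both ways. Rdh10 and Aldh1a3 were higher in EGFP-positive cells (log2 ratios 1.08 and 1.39). Aldh1a2, chosen here after its values were seen, had 39.1 in EGFP-positive cells against 76.1 in EGFP-negative cells (log2 ratio -0.96). This was just within 2-fold. Stra6, another gene of the list chosen after its values were seen, lay just within 2-fold the other way. It had 86.7 in EGFP-positive cells against 44.2 in EGFP-negative cells (log2 ratio 0.97). The 3 probe sets of Aldh1a3 ranged from 0.34 to 1.39, and the log2 ratio of Aldh1a3 was within 2-fold for their mean (0.85), with a pseudocount of 16 (0.81) and with the floor at the 60th percentile (-0.0311), as was Rdh10 after centring on hybridisation controls (0.84). The binding and breakdown genes Crabp1 and Cyp26b1 were higher in EGFP-negative cells (-2.76 and -1.63), as was the retinol carrier gene Rbp4, with 9.9 in EGFP-positive cells against 30.3 in EGFP-negative cells (within 2-fold with the pseudocount). Among bright members within 2-fold, Crabp2, which delivers retinoic acid to its receptors, had 2411.9 in EGFP-positive cells against 1421.5 in EGFP-negative cells (log2 ratio 0.76), Cyp26a1 had 252.4 and 325.6, and Aldh1a1 had 218.1 and 138.2.

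Genes that handle other receptor ligands were fewer. Of 3 measured genes of thyroid hormone supply, the transporter gene Slc16a10 was 4.61-fold higher in EGFP-negative cells (14.8 in EGFP-positive cells against 68.3 in EGFP-negative cells), the activating deiodinase gene Dio2 had 3.2 and 24.3, and the amino acid transporter gene Slc7a5 had 105.0 and 160.9. The log2 ratio of Slc16a10 was -2.21, against -1.04 with the floor at the 60th percentile, and Dio2 was just within 2-fold after quantile normalization. Of 6 measured genes of steroid and sterol metabolism, only the cholesterol hydroxylase gene Cyp46a1 passed 2-fold, with 7.2 in EGFP-positive cells against 29.1 in EGFP-negative cells, and not with the pseudocount. Hsd11b2, which inactivates glucocorticoids, had 443.3 in EGFP-positive cells against 328.7 in EGFP-negative cells, and Cyp7b1 and Cyp27a1, which hydroxylate sterols, had 65.9 and 25.4 in EGFP-positive against 46.3 and 24.5 in EGFP-negative cells.

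Known targets of the receptors went both ways, and no difference between target lists was tested. Of 6 liver X receptor targets, 3 were higher by 2-fold or more in EGFP-negative cells, namely the cholesterol transporter gene Abca1 (59.0 in EGFP-positive cells against 282.2 in EGFP-negative cells, 4.78-fold), Apoe (19.9 and 183.0, 9.20-fold) and Mylip (66.0 and 174.1, 2.64-fold). The sizes for Abca1 and Apoe depend on the setting, since the mean over probe sets of Abca1 gave a log2 ratio of -1.52 in place of -2.26, and for Apoe the floor at the 60th percentile gave -2.46 in place of -3.20. Srebf1, Scd1 and Abcg1, which act in lipid synthesis and export, were within 2-fold and had 508.3, 425.2 and 170.1 in EGFP-positive against 321.4, 281.8 and 96.4 in EGFP-negative cells. Of 4 measured PPAR targets, 3 were higher by 2-fold or more in EGFP-negative cells, namely Angptl4, a lipase inhibitor gene (5.77-fold), Cpt1a, the carnitine transferase gene of fatty acid oxidation (2.28-fold), and Plin2, which coats lipid droplets (2.26-fold). Cpt1a was just within 2-fold with the floor at the 60th percentile and with the pseudocount. The fatty acid transporter gene Cd36 had 11.8 and 15.0. Leukocyte markers were higher in EGFP-negative cells for 10 of 10 genes. Most markers of mesenchyme, endothelium, erythroid cells, hindbrain, and neural crest and glia were higher there too. The part of these cell types was not tested.

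Of 6 glucocorticoid targets, 1 was past 2-fold. This was Sgk1, a kinase gene, with 39.4 in EGFP-positive cells against 132.4 in EGFP-negative cells (3.36-fold higher in EGFP-negative cells). Dusp1, Fkbp5 and Zbtb16 had 404.9, 297.5 and 335.5 in EGFP-positive against 528.8, 300.7 and 202.1 in EGFP-negative cells. None of 3 measured thyroid hormone targets and none of 8 measured circadian partners of the Rev-erb and ROR receptors differed by 2-fold. Me1, Klf9 and Hr had log2 ratios of 0.69, 0.35 and 0.53, and the clock genes Cry1, Clock and Cry2 had 0.69, 0.50 and -0.36.

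**Figure D4:**
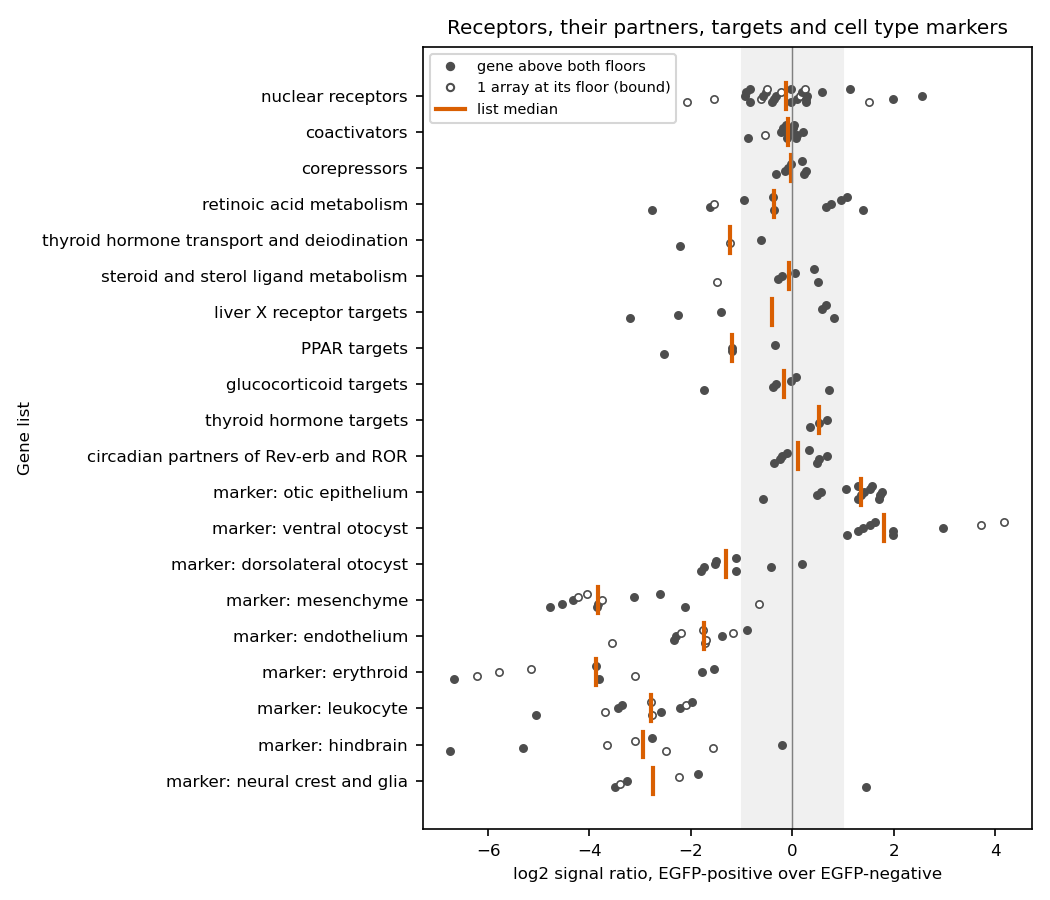
Log2 signal ratio, EGFP-positive over EGFP-negative, of each measured gene (points, open where 1 array is at its floor) in the receptor family, the lists of partners and targets, and the marker lists, with list medians as vertical bars and the range within 2-fold in grey. Coactivators and corepressors cluster near 0, with medians of -0.09 and -0.02, while markers of ventral otocyst lie to the right (median 1.80) and those of mesenchyme to the left (median -3.84).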

How the data were processed

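RNA from EGFP-positive and EGFP-negative cells was measured on 1 array each, with 1 µg of total RNA labelled per array, per the labels' protocols. For each probe set the deposited table holds an intensity, the MAS5 signal, made with MAS5 version 5.0 per the submitters' processing notes. The mean after trimming 2% at each end was 100.0 in both columns, so each array had been scaled to a common level. The sources used here give neither the scaling target nor detection calls. The median signal was 17.6 in EGFP-positive cells against 20.6 in EGFP-negative cells, and the number of arrays limits the precision.

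Probe sets were named from the platform annotation, with symbols updated through gene identifiers to GRCm38.p6 RefSeq. Among 45101 probe sets, 34958 carried the name of 1 gene, 932 of several genes and 9211 of none here. Analysis used Python 3.11.15, numpy 2.4.6 and pandas 2.3.3. Signals were raised to the 40th percentile of their array and the log2 ratio of the brightest probe set was taken, without a test. Simulated data were also put through these steps, but no outcome is given here, so the trial lends no weight to any call. The text names every receptor with a probe set. From each other list it names genes past 2-fold and up to 3 of the brightest within 2-fold, besides those marked as named after their values were seen. Of the marker lists, which describe what was sorted, it gives mostly counts. Members and lists were chosen with earlier results of these data known. The alternatives tried were 2 other floors, a pseudocount, 3 scalings, a mean over probe sets, and leaving out ambiguous probe sets or genes at a floor.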

Additional observations from a re-analysis of the deposited data

How the results depend on the processing

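Under 9 alternatives, Rxrg and Pgr stayed higher by 2-fold or more in EGFP-positive cells, with log2 ratios of 1.38 to 2.70 and of 1.20 to 2.13. Not all of these alternatives could change their values. Each gene had only 1 probe set above a floor, which was above both floors and not ambiguous. The mean over probe sets, leaving out ambiguous probe sets or genes at a floor, and the floor at the highest bacterial control therefore returned the same ratios. Nr6a1 stayed higher by 2-fold or more under 8 of 9 and Rorb under 7 of the 8 that gave it a value. Raising the floor to the 60th percentile gave Rorb a log2 ratio of -0.079, since by construction its EGFP-negative signal became 37.5, and the log2 ratio of Aldh1a3 was -0.0311 in the same way. Esrrb was at 0.59 without ambiguous probe sets, since its brightest probe set is one of these. Nr3c1 stayed past 2-fold under 7 of the 8 that gave it a value, the exception being -0.40 at the higher floor. The number of receptors higher in EGFP-negative cells was 2 as reported, 6 after centring on hybridisation controls, 3 for the mean over probe sets, 1 with a pseudocount of 16, 1 without ambiguous probe sets, and 0 with the floor at the 60th percentile or without genes at the floor in 1 library. Over all genes, the counts higher in EGFP-positive and EGFP-negative cells were 388 and 1019 as reported, 237 and 478 with the floor at the 60th percentile, 238 and 647 with the pseudocount, 325 and 632 without genes at the floor in 1 library, and 225 and 1442 after centring on hybridisation controls. No paired analysis was possible because each population has 1 array. Signals near the floor limit the size of every ratio for Rorb, Nr3c1, Esrrb, Rxrg and Pgr.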
